A study of Homo sapiens with 21 samples.

Results

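CTCF-depleted induced macrophages were set against the B cells they started from, with Tri-C contact counts seen from an enhancer in each of 51 loci. The depleted cells were a BLaER1 subclone in which CTCF carries an auxin-inducible degron (BLaER subclone CTCF-AID). They were collected 96 h after the conversion factors (17β-estradiol, IL-3 and CSF-1) and auxin (IAA) were added together, with the medium and auxin renewed once on the way. The reference cells were BLaER cells at 0 h, cultured without conversion factors. BLaER cells at 96 h of conversion are given beside them as the control 96 h library. The labels give neither a genotype nor auxin for these 2 groups. BLaER1 is a human B cell leukaemia line in which an estradiol-activated C/EBPα, a myeloid transcription factor, turns B cells into macrophage-like cells called iMacs. The depleted and 0 h groups hold 6 of the 21 samples of the series and the control 96 h group another 3, with 3 replicates in each group. All loci with an enhancer viewpoint were taken except IFNGR2 and TASL, which leaves 51 of 53 loci, 36 of genes that the study classed as iMac genes and 15 of genes that it classed as B cell genes.

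The 3 replicates of a group were pooled before deposit. Each condition is therefore 1 library, with no replicate spread, and no test between conditions was possible. Subclone, auxin, conversion and loss of CTCF all separate the depleted from the 0 h cells, and these cannot be told apart in the depleted to 0 h ratio. Subclone, auxin and loss of CTCF may likewise separate the depleted from the control 96 h cells, whose labels give neither genotype nor auxin. They cannot be told apart in the depleted to control 96 h ratio either. The contact counts hold no measure of CTCF itself, so the depletion could not be checked in them. Tri-C averages over all cells of a library, and a contact that weakened in every cell cannot be told apart from one lost in a fraction of the cells.

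CTCF is a zinc-finger protein that binds a long, directional DNA motif and halts cohesin, the ring complex that extrudes chromatin loops. Convergent CTCF sites anchor loops and mark domain boundaries, where contacts across the site are fewer than within the domain. Enhancers are bound by lineage transcription factors such as C/EBPα in myeloid cells or EBF1 and PAX5 in B cells, and meet their target promoters inside such domains.

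In Tri-C, chromatin is cross-linked, cut with NlaIII, which cuts at CATG, ligated, and enriched for 1 captured fragment per locus, the viewpoint. Reads that carry the viewpoint with at least 2 other fragments, its reporters, record contacts of 3 loci at once. The captured fragments of 4 loci on which the results turn are printed so that their position can be found, 5′ to 3′ on the + strand of hg38, with the bounding NlaIII sites in capitals. The CREG1 fragment (chr1:167627998-167628140) and the KLF6 fragment (chr10:4131550-4131712) are intergenic, as is the CCR1 fragment (chr3:46089518-46089663). The RAG2 fragment (chr11:36619385-36619609) lies in an intron of IFTAP.
CREG1: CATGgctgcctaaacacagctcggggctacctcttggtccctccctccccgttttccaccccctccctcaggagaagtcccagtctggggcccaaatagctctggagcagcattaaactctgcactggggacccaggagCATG
KLF6: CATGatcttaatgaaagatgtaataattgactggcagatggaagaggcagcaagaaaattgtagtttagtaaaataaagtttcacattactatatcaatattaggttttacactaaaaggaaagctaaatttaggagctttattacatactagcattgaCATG
CCR1: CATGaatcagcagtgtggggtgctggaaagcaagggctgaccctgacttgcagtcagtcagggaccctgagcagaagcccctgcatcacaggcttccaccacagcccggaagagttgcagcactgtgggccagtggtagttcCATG
RAG2: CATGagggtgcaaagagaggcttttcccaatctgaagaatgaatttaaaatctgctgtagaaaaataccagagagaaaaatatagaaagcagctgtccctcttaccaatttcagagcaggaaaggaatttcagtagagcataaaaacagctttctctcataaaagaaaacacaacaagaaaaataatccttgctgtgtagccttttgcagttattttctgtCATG

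Of the 51 viewpoints, 35 lie between genes and the others in introns. The target promoter lay 66.7 kb from the viewpoint in the median locus (21.3 to 588.2 kb), and the boundary CTCF site that the study used for the same locus lay 140.3 kb away (21.3 to 819.2 kb). Windows of 12 kb were centred on each. E-P-X counts are pairs of reporters in which 1 lay in the promoter window and the other at any distant place. E-C-X counts have 1 reporter in the boundary window, and E-P-C counts have 1 in each. Only distant pairs entered them, whose reporters both lay over 10 kb away from the viewpoint and also over 10 kb apart. A change is given as a log2 odds ratio between 2 libraries, in which window counts are set against all other counts, with an exact 95% interval. A locus was said to rise or fall past 1.5-fold with an interval that left out 0 and at least 20 window counts over both libraries. Intervals cover counting error only, and reads without molecular identifiers that give several pairs each are not independent, so true errors are wider.

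Pairs that stayed within 1 Mb of their viewpoint numbered 3181307 in depleted cells, 2376988 in control 96 h cells and 2547225 in 0 h cells, or 21161 to 144736 per locus and library. Pairs of neighbouring fragments, which follow each other on the chromosome, made up a median of 52.5% of counts in depleted cells, 39.1% in control 96 h cells and 40.6% in 0 h cells. Their share was higher in depleted cells than in both other libraries at 51 of 51 loci. The distant share was correspondingly small, at 18.5% in depleted cells, 29.0% in control 96 h cells and 26.4% in 0 h cells. It fell in depleted against 0 h cells at 34 of 51 loci (66.7%), and against control 96 h cells at 47 of 51 (92.2%). Without neighbouring pairs, it fell against 0 h cells at 5 of 36 iMac loci and 0 of 15 in the B cell class, with medians of -0.40 and -0.30 on the log2 scale. The part of this difference between libraries in the window results was not tested. Promoter and boundary counts are therefore given on 2 scales, relative to all pairs within 1 Mb and relative to distant pairs only. Class medians of E-P-X are given with neighbouring pairs left out too. Values of a single locus or window stand on the all-pair scale unless another is named. As background, 12 kb windows with no listed element within 300 kb of the viewpoint had a median log2 ratio in depleted over 0 h cells of -0.62 at iMac loci on the all-pair scale, and -0.47 in the B cell class. On the distant-pair scale these medians were -0.11 and 0.05.

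At iMac loci, three-way contacts with the target promoter were near their 0 h level in depleted cells when all pairs formed the denominator, and above it when only distant pairs did. E-P-X made up a median of 1.07% of pairs in depleted cells, 2.01% in control 96 h cells and 1.01% in 0 h cells. The median log2 ratio of depleted over 0 h was -0.14 (range -0.97 to 0.92), with 4 of 36 promoters higher and 6 lower. Of windows without a listed element, 0.438% were higher and 52.7% were lower in the same comparison. Relative to distant pairs the median was 0.49, with 15 promoters higher and 0 lower, against 6.28% higher and 14.6% lower among windows without a listed element. With neighbouring pairs left out the median was 0.21, with 8 higher and 1 lower, against 2.63% and 25.4%. The direction of the iMac median thus turned with the scale, while the promoters stood above windows without a listed element on all 3.

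The control 96 h library puts these values in place. Relative to all pairs, E-P-X was higher in control 96 h than in 0 h cells at 25 of 36 iMac promoters (median 0.97). Of windows without a listed element, 8.47% were higher. On the same scale, E-P-X was lower in depleted than in control 96 h cells at 32 of 36 (median -1.06), against 49.6% of such windows. Relative to distant pairs, 15 of 36 were lower in depleted than in control 96 h cells (median -0.45), against 8.03%. The depleted over 0 h and control over 0 h ratios share the 0 h library.

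**Figure D1:**
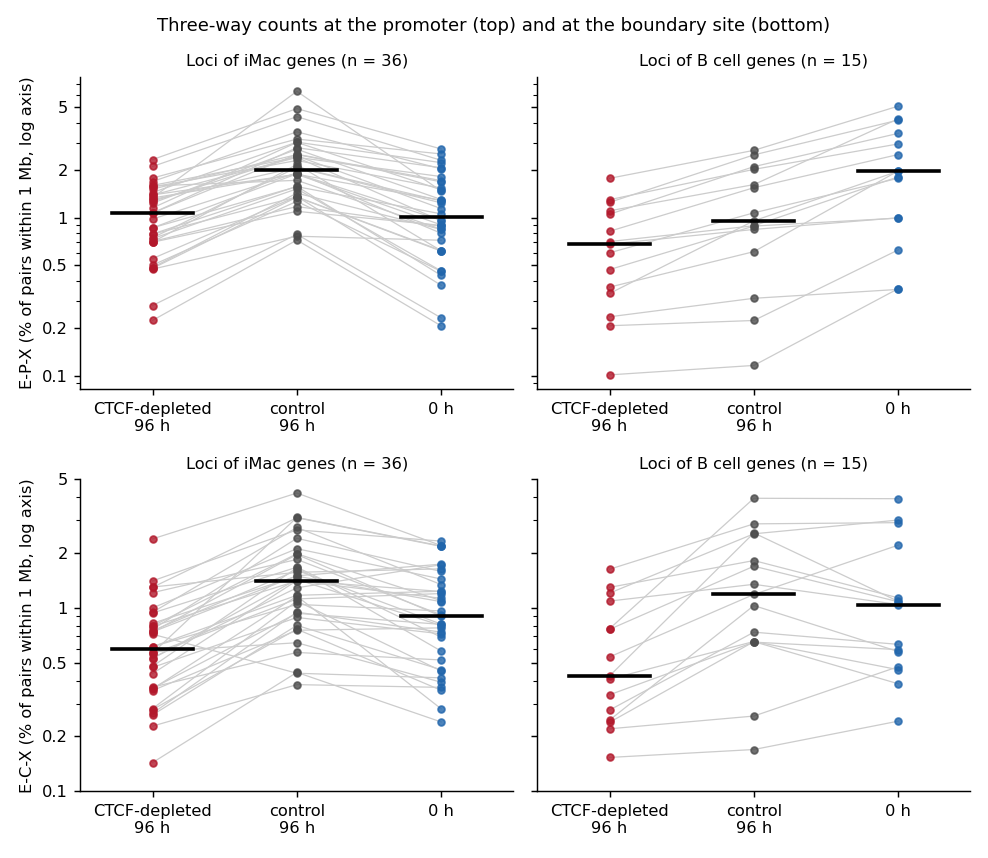
E-P-X (top) and E-C-X (bottom) as a percentage of pairs within 1 Mb, on log axes, at 36 iMac loci (left) and 15 B cell loci (right); each point is a locus in 1 pooled library, grey lines join a locus and black bars are medians. The iMac E-P-X medians are 1.07% in depleted, 2.01% in control 96 h and 1.01% in 0 h cells, while the B cell medians are 0.683%, 0.959% and 1.98%.

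CREG1, which encodes a secreted glycoprotein of the endolysosomal system, had the largest rise of any iMac promoter. Its E-P-X count was 717 in depleted cells (1.59% of pairs), 537 in control 96 h cells (1.73%) and 268 in 0 h cells (0.847%). The depleted over 0 h ratio was 0.92 (0.72 to 1.13), and the depleted over control ratio was -0.12. On the all-pair scale it was the iMac promoter at which depleted cells came nearest to control 96 h cells, and over distant pairs depleted cells were 0.40 above them. Its promoter lies at chr1:167553805, 74.3 kb from the viewpoint and on the other side of it from the boundary site.

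FOSL2, an AP-1 subunit, had E-P-X at 0.791% of pairs in depleted cells, 1.58% in control 96 h cells and 0.432% in 0 h cells, a depleted over 0 h ratio of 0.87 (0.59 to 1.18). PELI1, a ubiquitin ligase of Toll-like receptor signalling, stood at 0.74%, 1.53% and 0.462% in the same order of libraries, a ratio of 0.68 (0.43 to 0.94). KLF6, a zinc-finger transcription factor, stood at 1.40%, 1.89% and 0.903%, a ratio of 0.64 (0.47 to 0.80). These 3 and CREG1 were the promoters that rose on the all-pair scale, and depleted cells lay between 0 h and control 96 h cells at each of the 4. Their distant-pair ratios were 1.43 at CREG1, 1.42 at PELI1, 1.30 at FOSL2 and 1.01 at KLF6.

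A further set of promoters rose on the distant-pair scale and not over all pairs. CITED2, a coregulator that binds CBP and p300, had ratios of 0.56 over all pairs and 1.10 over distant pairs. KDM7A, a histone demethylase, had 0.55 and 0.98, and TRIB1, a pseudokinase that directs degradation of C/EBPα, had 0.35 and 0.89. NFKBIZ, a nuclear regulator of NF-κB, had 0.15 and 0.67, and LMO2, a bridging factor of haematopoietic transcription complexes, had 0.05 and 0.80. The LMO2 value depends on where the promoter is placed. At the canonical transcript start, chr11:33892076 instead of chr11:33869816, its E-P-X count was 1454 in depleted, 1335 in control 96 h and 829 in 0 h cells, with ratios of 0.69 and 1.56, both past 1.5-fold. SRGN, a granule proteoglycan, had -0.23 over all pairs and 0.82 over distant pairs. Its E-P-X count was 982 in depleted, 1493 in control 96 h and 1254 in 0 h cells, and its distant share was the one that fell most (12.8%, 21.6% and 24.3% of pairs).

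CCR1, a receptor for inflammatory chemokines, stood apart in the control library. E-P-X made up 1.34% of pairs in depleted cells, 6.32% in control 96 h cells and 1.48% in 0 h cells, with 1046, 4985 and 1280 counts. The depleted over 0 h ratio was -0.14 (-0.26 to -0.02) on the all-pair scale and 0.34 on the distant-pair scale, neither past 1.5-fold. Against control 96 h cells it was -2.31, the largest fall of an iMac promoter. At CCR1 the depleted library was therefore close to 0 h at a promoter where control 96 h was 2.17 above 0 h on the log2 scale.

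The promoters that fell on the all-pair scale included CCL2, a monocyte-attracting chemokine, with 1.07% of pairs in depleted cells, 2.78% in control 96 h cells and 2.08% in 0 h cells (-0.97, -1.09 to -0.85). CD93, a surface glycoprotein of myeloid cells, had -0.81, and CD163, the haemoglobin-haptoglobin scavenger receptor, had -0.78. TNFRSF1B, a tumour necrosis factor receptor, had -0.64. None of these 4 remained past 1.5-fold on the distant-pair scale, where CCL2 had -0.40, CD93 -0.16, CD163 -0.09 and TNFRSF1B 0.08. IRF8, a transcription factor of myeloid and B cells, was not past 1.5-fold on either scale (-0.30 and 0.03).

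Grouped by function, the 13 myeloid transcription regulators had a median E-P-X ratio of 0.18 in depleted over 0 h cells, with 2 higher and 0 lower, and 0.77 on the distant-pair scale with 9 higher. The 13 surface and secreted proteins had -0.27, with 1 higher and 4 lower, and 0.34 with 4 higher. The 10 signalling and other myeloid loci had -0.24, with 1 higher and 2 lower, and 0.34 with 2 higher. The transcription regulators thus had the highest median of the 3 lists on both scales, and 12 of the 13 had a positive ratio over all pairs.

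Promoter distance differed among these loci. The 11 iMac promoters 20 to 50 kb from the viewpoint had a median of -0.27, the 13 at 50 to 100 kb had -0.16 and the 12 at 100 to 600 kb had 0.28. Of those at 100 to 600 kb, 3 rose and 0 fell, and 10 of 12 had a positive ratio. Windows without a listed element in the same bands had -0.75, -0.68 and -0.59, so the medians rose with distance by less there. Over distant pairs the promoters had 0.29, 0.39 and 0.80, and the windows -0.29, -0.15 and -0.09. Loci of transcription regulators and loci with far promoters overlap in part, and the part of each was not tested.

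**Figure D2:**
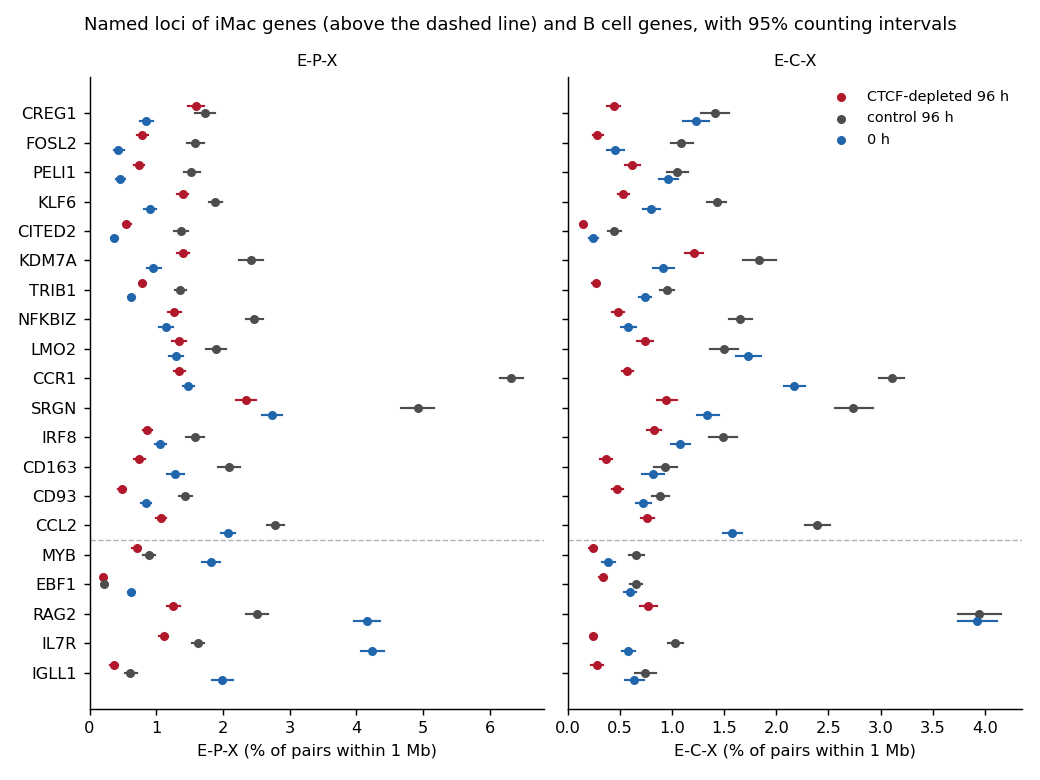
E-P-X (left) and E-C-X (right) as a percentage of pairs within 1 Mb at 20 named loci, iMac genes above the dashed line and B cell genes beneath it, with depleted 96 h, control 96 h and 0 h libraries from top to bottom in each row. Lines are exact 95% counting intervals; at CCR1 the depleted E-P-X value (1.34%) lies by the 0 h value (1.48%) and far from the control value (6.32%), and at CREG1 it lies by the control value.

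At B cell loci the loss of promoter contacts was present in depleted cells on every scale. E-P-X made up a median of 0.683% of pairs in depleted cells, 0.959% in control 96 h cells and 1.98% in 0 h cells. The median depleted over 0 h ratio was -1.60 (range -2.59 to -0.56), and 13 of 15 promoters fell, against 40.4% of windows without a listed element. Over distant pairs the median was -1.18 and 13 fell, against 6.85%, while 0 promoters but 16.8% of such windows were higher. Without neighbouring pairs the median was -1.19 and 13 fell, against 11.9%. The 2 promoters that did not fall on these scales were those of CD38, an ectoenzyme, and RORB, a nuclear receptor (-0.58 and -0.56 over all pairs, 0.02 and -0.10 over distant pairs).

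Control 96 h cells showed the same direction, with 11 of 15 promoters lower than at 0 h (median -0.76), against 2.79% of windows without a listed element. Depleted cells were lower than control 96 h cells at 9 of 15 (median -0.65), against 54.6% of such windows. Over distant pairs, 1 of 15 was lower in depleted than in control 96 h cells (median -0.13), against 11.9%. The all-pair count and median are close to those of windows without a listed element, whose median was -0.63.

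IGLL1, a component of the surrogate light chain of pre-B cells, had the largest fall among the named promoters. Its E-P-X count was 125 in depleted cells (0.365% of pairs), 176 in control 96 h cells (0.612%) and 593 in 0 h cells (1.98%), a ratio of -2.46 (-2.76 to -2.19). IL7R, the interleukin-7 receptor, had 1.11% in depleted, 1.62% in control 96 h and 4.24% in 0 h cells (-1.98, -2.09 to -1.87). BCL11A, a zinc-finger transcriptional repressor of lymphoid cells, had 0.102%, 0.117% and 0.357% in the same order (-1.81). The 3 loci kept ratios of -1.85, -1.74 and -1.18 on the distant-pair scale.

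RAG2, a subunit of the V(D)J recombinase, had 1.25% in depleted cells, 2.51% in control 96 h cells and 4.16% in 0 h cells (-1.77, -1.91 to -1.64), with the promoter 21.3 kb from the viewpoint. DNTT, the terminal transferase that adds bases at V(D)J joints, had 1.05%, 2.11% and 3.43% (-1.73). At these loci, depleted cells were also lower than control 96 h cells over all pairs, with ratios of -1.02 at RAG2 and -1.01 at DNTT. Of windows without a listed element at B cell loci, 54.6% were lower in that comparison. Over distant pairs neither promoter was lower than in control 96 h cells past 1.5-fold. EBF1, a master regulator of B cell identity, was different, with 0.208% in depleted, 0.224% in control 96 h and 0.628% in 0 h cells. Its ratio was -1.60 over 0 h and -0.11 over control 96 h.

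The 4 B lineage transcription factor promoters all fell (median -1.49), among them PAX5 (-1.09, or -0.91 at its canonical start) and MYB, a progenitor transcription factor (-1.38, with 423, 398 and 708 counts in depleted, control 96 h and 0 h cells). Of 7 B cell receptor and recombination promoters, 6 fell (median -1.73), and of 4 other B cell promoters, 3 fell (median -1.58), including BCL2, an inhibitor of apoptosis (-1.58), and IRAG2, a membrane protein of the endoplasmic reticulum (-1.57). The immunoglobulin lambda-like gene IGLL5 had -1.64.

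Contacts with the boundary CTCF site in depleted over 0 h cells moved as windows without a listed element did at iMac loci, and stood below such windows at B cell loci. At iMac loci, E-C-X made up a median of 0.595% of pairs in depleted cells, 1.40% in control 96 h cells and 0.907% in 0 h cells. The median depleted over 0 h ratio was -0.61, with 1 of 36 sites higher and 19 lower, close to the 52.7% of windows without a listed element that were lower and to their median of -0.62. Over distant pairs it was -0.09, with 6 higher and 5 lower. The lower count is again close to the 14.6% of such windows, and the higher count is above their 6.28%. At B cell loci the medians were 0.425% in depleted, 1.18% in control 96 h and 1.04% in 0 h cells. The ratio was -0.86 with 11 of 15 lower over all pairs, against 40.4% of windows without a listed element. Over distant pairs it was -0.42 with 2 higher and 5 lower, against 16.8% and 6.85%. Against control 96 h cells, 33 of 36 iMac sites and 11 of 15 B cell sites were lower in depleted cells on the all-pair scale, against 49.6% and 54.6% of windows without a listed element. Over distant pairs 18 and 6 were lower, against 8.03% and 11.9%.

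The falls at single boundary sites varied widely. At RAG2, E-C-X made up 0.769% of pairs in depleted cells, 3.95% in control 96 h cells and 3.93% in 0 h cells (-2.40, -2.57 to -2.23), so that control 96 h and 0 h cells differed by 0.01 on the log2 scale. The site is in an intron of RAG1, 54.8 kb from the viewpoint. At CCR1 it made up 0.567%, 3.11% and 2.17% (-1.96, -2.11 to -1.81), and at BCL2 0.54%, 1.18% and 2.19% (-2.05). Boundary contacts also fell at TNFRSF1B (-1.70), CREG1 (-1.50), TRIB1 (-1.48) and LMO2 (-1.24). Of these 7, all but LMO2 (-0.56) were also lower past 1.5-fold on the distant-pair scale, with -1.89 at RAG2, -1.54 at CCR1 and -1.45 at BCL2.

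ITGAX, the integrin αX chain (CD11c), was the only locus whose boundary contacts rose over all pairs. E-C-X made up 0.718% of pairs in depleted cells, 0.44% in control 96 h cells and 0.415% in 0 h cells (0.79, 0.57 to 1.02), and the distant-pair ratio was 1.33. Its boundary site lies in an intron of ARMC5. DNTT (0.19) and IGLL5 (0.06) had boundary contacts near the 0 h level over all pairs and higher past 1.5-fold over distant pairs (0.65 and 0.59).

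The balance of promoter and boundary contacts within a library uses neither denominator. With pairs that hit both windows left out, the promoter took a median of 62.7% of these contacts in depleted cells, 59.6% in control 96 h cells and 52.5% in 0 h cells at iMac loci. The depleted over 0 h median was 0.35, with 13 of 36 loci higher and 2 lower. At B cell loci the promoter took 53.6%, 51.2% and 68.4%, with a median of -0.72, 1 higher and 10 lower. No background share was computed for this measure, and the windows overlap at 4 of the iMac loci. Without these 4 the iMac median was 0.35, with 11 of 32 higher.

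CREG1 had the largest shift to the promoter, which took 79.0% of these contacts in depleted cells, 55.4% in control 96 h cells and 40.6% in 0 h cells (2.46). CCR1 (70.7%, 68.6% and 40.3%) and TRIB1 (75.1%, 59.2% and 45.7%) both had 1.84. At CCR1 the balance in depleted cells was close to that of control 96 h cells, although both contacts were fewer. DNTT shifted the other way, to 44.8% in depleted cells, against 54.1% in control 96 h cells and 76.1% in 0 h cells (-1.97).

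Three-way contacts that joined enhancer, promoter and boundary in 1 read were rare. At CCR1, E-P-C counts were 15 in depleted cells, 301 in control 96 h cells and 38 in 0 h cells, a depleted over 0 h ratio of -1.16 (-2.16 to -0.29) and a depleted over control ratio of -4.27. At RAG2 they were 35 in depleted, 111 in control 96 h and 206 in 0 h cells (-2.67). At IRAG2 they were 6, 72 and 42 (-3.43), and at BCL2 5, 17 and 50 (-3.60). IL7R had 0 in depleted, 6 in control 96 h and 16 in 0 h cells, where the 0 is compatible with as many as 3. At each of these loci depleted cells had the fewest E-P-C counts of the 3 libraries, which follows in part from how they were picked. CCR1, RAG2 and BCL2 were among the largest E-P-C falls against 0 h cells, and IRAG2 among those against control 96 h cells. IL7R had too few counts in depleted and 0 h cells to be called. KDM7A and CD14, given below, went the other way, with the most counts in depleted cells.

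Of the 8 B cell loci with at least 20 E-P-C counts, 6 fell and 0 rose against 0 h (median -1.98). Of 17 such iMac loci, 4 fell and 1 rose (median -0.50) over all pairs, whereas over distant pairs 1 fell and 5 rose (median 0.12), so that the direction of the iMac median turned with the scale. The B cell median kept its direction over distant pairs (-1.46, 5 lower and 0 higher). No background share was computed for E-P-C. The minimum applies to both libraries together, so a locus can pass through high counts in 0 h cells alone. Such loci can mainly fall, and the remaining loci were not measured. As a share of E-P-X pairs, E-P-C fell at 4 and rose at 1 of the 8 B cell loci (median -0.44). At the 17 iMac loci this share fell at 2 and rose at 2 (median -0.08). The 4 iMac loci that fell over all pairs were CCR1, given above, IL10RA, the interleukin-10 receptor chain (34, 71 and 86 counts; -1.32), CCL2 (21, 90 and 42; -1.03) and LYN, a Src family kinase (18, 80 and 37; -0.98). Over distant pairs, IL10RA alone of these 4 stayed past 1.5-fold (-0.81). The 1 that rose over all pairs was CD14, a lipopolysaccharide co-receptor whose 2 windows overlap (20, 12 and 7 counts; 1.37). KDM7A (44, 29 and 14 counts; 0.77) rose over distant pairs (1.16). SRGN, with 52 counts in depleted, 129 in control 96 h and 65 in 0 h cells, was not past 1.5-fold over all pairs (-0.19) and rose over distant pairs (0.74). Relative to all pairs, E-P-C was higher in control 96 h than in 0 h cells at 15 of 20 iMac loci (median 1.29). It was lower in depleted than in control 96 h cells at 15 of 22 (median -1.61). The loci with enough counts differ among these comparisons, so the medians are not of the same members.

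**Figure D3:**
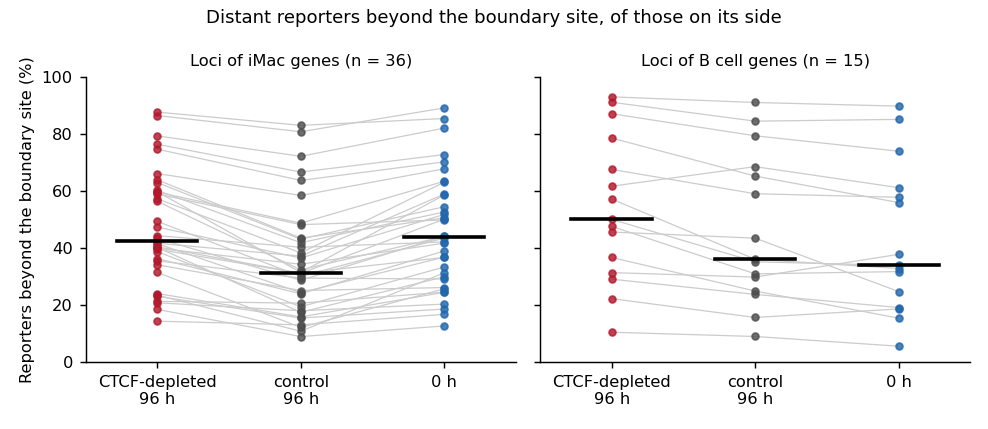
Distant reporters beyond the boundary site, as a percentage of those on its side, at 36 iMac loci (left) and 15 B cell loci (right); points are loci in 1 pooled library, grey lines join a locus and black bars are medians. The iMac medians are 42.6% in depleted, 31.4% in control 96 h and 43.9% in 0 h cells, and the B cell medians 50.1%, 36.2% and 34.0%.

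Reporters beyond the boundary site were counted against those inside it, on the boundary's side and without the 12 kb centred on the site. This measure uses neither of the 2 scales. Over all 51 loci the share rose in depleted against 0 h cells at 16 (31.4%) and against control 96 h cells at 32 (62.7%). No background share was computed at positions without a boundary site. A change at the site therefore cannot be told apart from a general shift of contacts with distance. The 2 classes stood in a different order. At iMac loci the share was 42.6% in depleted, 31.4% in control 96 h and 43.9% in 0 h cells. Depleted over 0 h was 0.18 in the median, with 4 higher and 2 lower, while 24 of 36 were higher than in control 96 h cells (median 0.70). Control 96 h cells were lower than 0 h cells at 20 of 36 (median -0.69), against 2 of 36 in depleted cells.

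At B cell loci the share beyond the site was 50.1% in depleted, 36.2% in control 96 h and 34.0% in 0 h cells. It rose over 0 h at 12 of 15 loci (median 0.96) and over control 96 h at 8 of 15 (median 0.62). At MYB it was 36.8% in depleted, 25.0% in control 96 h and 15.5% in 0 h cells (1.66, 1.57 to 1.76), with a boundary site in an intron of AHI1, 309.5 kb from the viewpoint. At RAG2 it was 78.6%, 65.3% and 56.0% (1.53), at DNTT 57.3%, 36.2% and 32.9% (1.45) and at IRAG2 45.7%, 43.6% and 24.8% (1.35). At IRAG2 control 96 h cells were already close to depleted cells (0.13), whereas at DNTT they were close to 0 h cells (0.21).

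Among iMac genes, PTPRC, the CD45 phosphatase, had 56.5% in depleted, 32.5% in control 96 h and 44.1% in 0 h cells (0.71), and CCR1 had 40.3%, 17.6% and 30.02% (0.66). LMO2 fell, with 41.8% in depleted, 37.3% in control 96 h and 59.0% in 0 h cells (-1.004, -1.07 to -0.94), as did ITGAX, with 39.7%, 31.2% and 50.2% (-0.62). At LMO2 and ITGAX depleted cells were nearer to control 96 h cells than to 0 h cells. NFKBIZ (23.6%, 10.9% and 31.4%) and KDM7A (59.9%, 31.5% and 58.7%) were higher than in control 96 h cells by 1.33 and 1.70, without passing 1.5-fold against 0 h.

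Distance bands showed the same contrast between the classes. They hold all distant reporters, including those of the share beyond the site, so they are not a separate result. No background share was computed for the bands. Reporters 500 to 1000 kb from the viewpoint had a median depleted over 0 h ratio of 0.63 at B cell loci, with 8 of 15 higher and 0 lower, and -0.05 at iMac loci, with 1 higher and 3 lower. At 10 to 50 kb the medians were -0.36 and -0.17. Depleted cells had a larger share of reporters at 500 to 1000 kb than control 96 h cells at 19 of 36 iMac loci and 6 of the 15 others. The share of this band was 16.4% in depleted, 7.53% in control 96 h and 4.93% in 0 h cells at IRAG2, and 25.8%, 14.5% and 11.4% at RAG2. SRGN had the largest fall in this band (-0.75). The share of pairs on opposite sides of the viewpoint passed 1.5-fold at 0 of 51 loci (medians 0.08 in the iMac class and 0.09 in the B cell class).

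**Figure D4:**
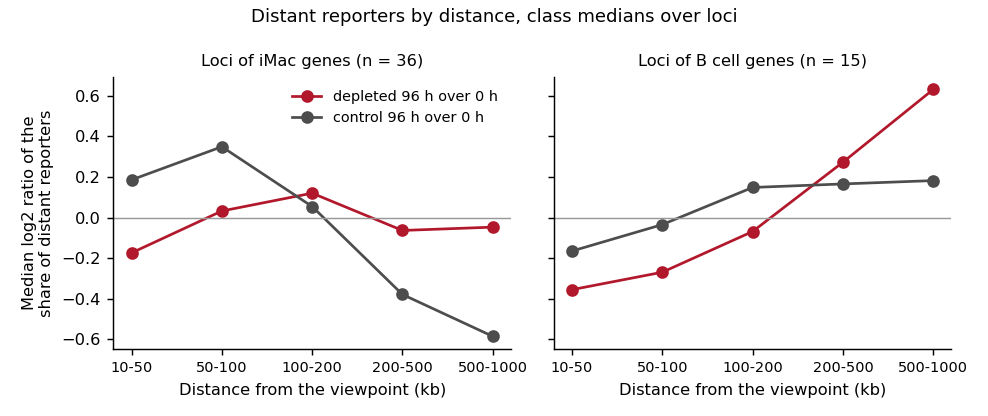
Median log2 ratio over loci of the share of distant reporters in each band of distance from the viewpoint (kb), for depleted 96 h over 0 h (red) and control 96 h over 0 h (grey), at iMac loci (left) and B cell loci (right). For 500 to 1000 kb the depleted line ends at -0.05 in the left panel and 0.63 in the right, and the control line at -0.59 and 0.18.

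Beside the target promoter and the boundary, the study lists further enhancers and CTCF sites in these loci, and windows of 12 kb were placed on those within 300 kb of the viewpoint that stand clear of other elements. At iMac loci, 90 enhancer windows had a median depleted over 0 h ratio of -0.34, with 5 higher and 23 lower. The 685 windows without a listed element had -0.62, with 0.438% higher and 52.7% lower. Over distant pairs the enhancer windows had 0.21, with 16 higher and 1 lower. Windows without a listed element had -0.11 on that scale, with 6.28% higher and 14.6% lower. The 95 CTCF site windows had -0.52 and -0.01, between the other kinds on both scales. At B cell loci the order was different, with -0.79 at 20 enhancer windows, -1.07 at 30 CTCF site windows and -0.47 at 394 windows without a listed element. Over distant pairs these were -0.35, -0.57 and 0.05.

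Single windows at FOSL2 differed among themselves. Positions are given from the viewpoint, negative towards lower coordinates. An enhancer at -145.8 kb had 549 counts in depleted, 551 in control 96 h and 166 in 0 h cells (0.99), and one at -124.3 kb had 661, 702 and 198 (1.003). Another at -35.1 kb had 481, 475 and 419 counts (-0.55). At KLF6 the enhancer at -150.8 kb had 688, 1177 and 295 counts, a ratio of 0.44 over 0 h and -1.01 over control 96 h.

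In depleted over 0 h cells, 16 of 20 enhancer windows and 23 of 30 CTCF site windows of B cell loci were lower and 0 were higher. Of windows without a listed element, 40.4% were lower and 5.33% higher. Over distant pairs, 7 enhancer and 14 CTCF site windows were lower and 0 and 1 higher, against 6.85% and 16.8%. Against control 96 h cells over all pairs, 7 and 21 were lower and 1 and 0 higher, against 54.6% and 3.81%. At EBF1 an enhancer at -121.0 kb had 835 counts in depleted, 656 in control 96 h and 1754 in 0 h cells (-1.61), with little difference from control 96 h cells (-0.09). At RAG2 a CTCF site at 127.8 kb had 134, 458 and 400 counts (-1.71), and was low against control 96 h cells too (-2.20). At IL7R an enhancer at 151.3 kb had 494, 199 and 440 counts, so that depleted cells were above control 96 h cells (1.02) while falling against 0 h (-0.60).

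**Figure D5:**
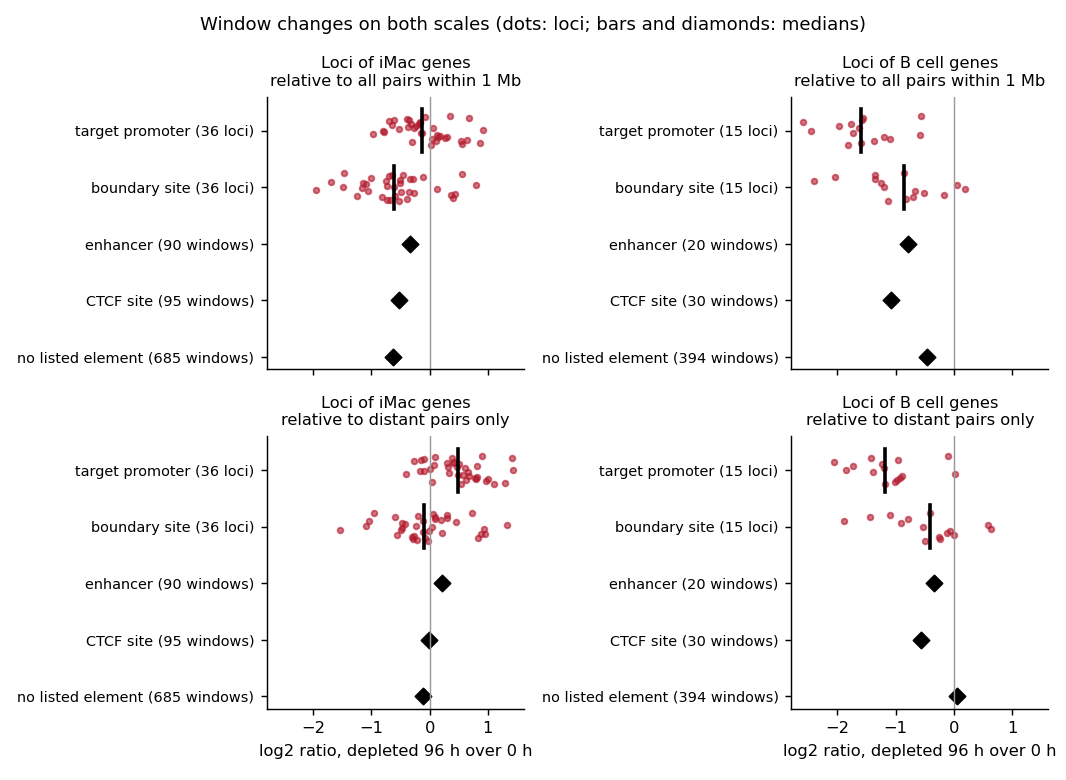
Log2 ratio of depleted 96 h over 0 h for the target promoter and boundary windows (points are loci, black bars medians) and medians of listed enhancer, CTCF site and empty windows within 300 kb (diamonds), at iMac (left) and B cell loci (right), relative to all pairs within 1 Mb (top) or to distant pairs only (bottom). The iMac promoter median is -0.14 in the top panel and 0.49 in the bottom panel, and the B cell promoter median is -1.60 and -1.18.

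The partners of the promoter within E-P-X pairs give a further view that the total count does not set. At 28 iMac loci with enough counts, listed enhancers took a larger share of E-P-X pairs in depleted than in 0 h cells at 9 and a smaller share at 3 (median 0.32). Windows without a listed element took a larger share at 2 of 35 iMac loci and a smaller one at 12 (median -0.29). The median share that listed enhancers took at the 28 iMac loci was 7.23% in depleted, 10.4% in control 96 h and 6.82% in 0 h cells. At FOSL2, listed enhancers held 57 counts in depleted cells (14.5%), 52 in control 96 h cells (8.67%) and 5 in 0 h cells (3.91%). Its depleted over 0 h ratio was 1.94. KLF6 had 7.18%, 11.1% and 3.16% (1.204). PTPRC had 9.28%, 21.7% and 18.5% (-1.13), and CCR1 had 4.59%, 11.3% and 6.95% (-0.63). CTCF sites took a larger share at 7 of 27 iMac loci and a smaller one at 2 (median -0.06), and at B cell loci a smaller one at 4 of 12 (median -0.65). At B cell loci windows without a listed element took a larger share at 2 of 15 and a smaller one at 2 (median 0.12).

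The boundary sites were searched for the core of the CTCF motif, written CCA, any 2 bases, AG, any 2 bases and GGC, on both strands of 2000 bp around each site. It was found at 12 of 51 boundary sites (23.5%), at 144 of 525 listed CTCF sites (27.4%) and in 48 of 1081 windows without a listed element cut to the same length (4.44%). The 5 matches printed come from a set of named loci picked by hand, and these boundaries differ in how their contacts moved. Each is 40 bases of hg38 read along the strand of the match, with the match in capitals. In depleted over 0 h cells E-C-X fell by 1.24 at LMO2 (chr11:33858013-33858052, + strand), by 1.70 at TNFRSF1B (chr1:12118776-12118815, + strand, intron of TNFRSF8) and by 2.05 at BCL2 (chr18:63016423-63016462, + strand). It was higher by 0.79 at ITGAX (chr16:31460853-31460892, - strand, intron of ARMC5), and at DNTT (chr10:96340468-96340507, - strand) the ratio was 0.19. All 5 point towards the viewpoint, whether contacts fell or rose. The directions of the other matches at boundary sites are not given here. The absence of these letters at the other boundary sites says only that they are not in this window.
LMO2: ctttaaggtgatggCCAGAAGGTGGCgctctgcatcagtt
TNFRSF1B: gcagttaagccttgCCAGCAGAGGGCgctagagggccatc
BCL2: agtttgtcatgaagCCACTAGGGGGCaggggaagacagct
ITGAX: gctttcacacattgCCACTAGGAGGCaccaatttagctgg
DNTT: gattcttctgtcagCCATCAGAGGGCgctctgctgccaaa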

How the data were processed

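Tri-C libraries were made by the authors from 3 biological replicates per group. Reads were processed by the authors with CapCruncher in capture mode against hg38. Replicates were then merged, and a custom script kept reads holding 2 or more reporters in cis and listed every pair. Deposited values are counts per pair of fragments. Of 371 files, 153 of the 3 enhancer libraries were used, and 51 boundary files at 0 h served only to place sites, while 167 were not used. All 3501505 fragments listed matched NlaIII sites of the reference genome. The authors' binning, correction for fragments per bin and Wilcoxon tests were not used, and raw counts were kept.

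Viewpoints were placed at the fragment under the capture oligo (at 1 locus from the gap in the reporters), promoters at the transcript start nearest the study's promoter oligo, and elements at positions the study lists. Log2 odds ratios added 0.5 to each count. Intervals of ratios are exact conditional binomial, and of shares Clopper-Pearson. Windows within 300 kb were chosen after seeing the data. Scripts were tested on simulated counts. Python 3.11.15, NumPy 2.4.6, pandas 2.3.3, SciPy 1.17.1, pysam 0.24.0 and matplotlib 3.10.9 were used.

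The members, lists and comparisons were chosen with earlier results of these data known. Loci named singly come from those the study's text discusses and the 6 largest rises and falls past 1.5-fold with at least 50 window counts. The 2 members of each list with the most counts were eligible too. Not every eligible locus is given singly: CEBPA, KLF4, RBPJ, DDIT4, GAS7 and MPEG1 are among those left out. CD163, IGLL5 and CD38 were named after their values were seen. Some further loci enter every count but are not reported singly here. IRAG2 is LRMP, CEBPA is CEBPa and MPEG1 is MPEG in the deposited data. The alternatives were another window, denominator, promoter start, count minimum and fold, each pair counted once, no neighbouring pairs, and fewer loci.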

Additional observations from a re-analysis of the deposited data

How the results depend on the processing

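No paired analysis was possible because each file pools its replicates, and for the same reason no replicate could be left out. Of 197 values under 13 alternatives for 25 results, 138 stayed within 1.5 times the main count or within the interval of the main median over loci, 54 moved beyond that and 5 medians left it with a change of sign. The iMac E-P-C median also changed sign, to 0.12 relative to distant pairs, within its wide interval (-0.98 to 0.77). All values are depleted 96 h over 0 h unless stated. The cause was not tested where a value moved.

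Relative to distant pairs only, the iMac E-P-X median turned to 0.49, with 15 loci higher and 0 lower, and the B cell median was -1.18. The E-C-X medians were -0.09 and -0.42, with 5 lower in each class. Against control 96 h cells the iMac E-P-X median was -0.45, with 15 lower. Enhancer windows turned to 0.21 at iMac loci and had -0.35 at B cell loci, and CTCF sites had -0.01 and -0.57.

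With neighbouring pairs left out, the iMac E-P-X median turned to 0.21, with 8 higher and 1 lower, and the B cell median was -1.19. The iMac E-C-X median was -0.29, with 10 lower, and 7 B cell loci were lower. The distant share had -0.40 (5 lower) in iMac and -0.30 in B cell loci. Against control 96 h cells the iMac E-P-X median was -0.64, with 20 lower. Enhancer windows had -0.03 and -0.40, and CTCF sites -0.21 and -0.69.

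With each fragment pair counted once, the iMac E-P-X median turned to 0.24, with 10 higher and 0 lower, and the B cell median was -1.17. The iMac E-C-X median was -0.22, with 9 lower. The distant share had -0.33 (4 lower) and -0.20, and iMac E-P-X against control 96 h cells had -0.61. Enhancer windows turned to 0.03 at iMac loci and had -0.52 at B cell loci, and CTCF sites had -0.17 and -0.71.

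Relative to all pairs of the chromosome the B cell E-P-X median was -1.85. Windows of 7.5 kb gave 7 iMac promoters higher and windows of 30 kb gave 2, with 12 B cell loci lower in E-P-C. A minimum of 100 window counts left 1 B cell locus lower in E-P-C. At 2-fold, 0 iMac promoters were higher and 0 lower, 10 iMac and 7 B cell boundary sites were lower, 5 B cell loci had a higher share beyond the site and 1 iMac locus a lower distant share. Against control 96 h cells, 20 iMac promoters were lower and 13 iMac loci had a higher share beyond the site at 2-fold. With distant set at over 20 kb, the iMac distant share had -0.57, with 16 lower. With promoters at the canonical start, chosen after seeing the data, 5 iMac promoters were higher, LMO2 among them. Low counts limit E-P-C most.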
